A study of Homo sapiens with 8 samples.

Results

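The HSP70 family members described here are 10 human genes, HSPA6, HSPA1A, HSPA1B, HSPA2, HSPA4, HSPA4L, HSPA8, HSPA9, HSPA13 and HSPA14. They were taken by symbol from tables of 24252 genes, and where a symbol occurred more than once, the ID whose mean over the 8 libraries was highest was kept. The cells were HaCaT, human skin keratinocytes that became immortal in culture, and 4 RNA sequencing libraries were labelled OGD-R and 4 Control. OGD-R stands for a period without oxygen and glucose and their later return, sampled at an early stage, while Control cells carry no treatment label. How long each phase lasted is not given, and whether replicates were separate cultures is not stated either, so the p-values reflect library-to-library spread that may be technical. HSPA6 was chosen by its measured FPKM, low in OGD-R of these same libraries, so its difference between the groups is described without a test. The other members were added as relatives by name.

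HSP70 proteins bind exposed hydrophobic stretches of unfolded proteins and release them in a cycle driven by ATP. J-domain proteins deliver clients and start ATP hydrolysis, and nucleotide exchange factors reset the cycle. HSPA8 is the constitutive cytosolic form, HSPA1A and HSPA1B are the main stress-inducible forms, and HSPA6 is a strictly inducible form of human cells that is usually close to silent without proteotoxic stress. Their induction depends on heat shock factor 1, which binds heat shock elements in promoters. In skin, keratinocytes use this response against heat, ultraviolet light and other proteotoxic stress.

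Promoter windows of a strictly inducible, a constitutive and an inducible cytosolic member are shown because the levels of these genes are set beside each other below. The sequences are RefSeq windows on GRCh38.p14, the 250 bases before the gene start that RefSeq gives, read 5′ to 3′ along the gene's strand, with the GAA and TTC units of heat shock elements in capitals. The window of HSPA6 lies at chr1:161524290-161524539 on the plus strand, that of HSPA8 at chr11:123062137-123062386 on the minus strand and that of HSPA1A at chr6:31815293-31815542 on the plus strand. Gene positions further on are those of GENCODE 29, whose outermost transcripts begin before the RefSeq start of HSPA8 and HSPA1A, so the windows of these genes lie wholly or partly within the GENCODE gene.
HSPA6: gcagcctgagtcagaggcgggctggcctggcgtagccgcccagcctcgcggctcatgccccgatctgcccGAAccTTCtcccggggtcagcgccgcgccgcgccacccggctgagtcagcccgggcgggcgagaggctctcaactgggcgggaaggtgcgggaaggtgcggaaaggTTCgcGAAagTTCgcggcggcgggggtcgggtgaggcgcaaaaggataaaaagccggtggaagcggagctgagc
HSPA8: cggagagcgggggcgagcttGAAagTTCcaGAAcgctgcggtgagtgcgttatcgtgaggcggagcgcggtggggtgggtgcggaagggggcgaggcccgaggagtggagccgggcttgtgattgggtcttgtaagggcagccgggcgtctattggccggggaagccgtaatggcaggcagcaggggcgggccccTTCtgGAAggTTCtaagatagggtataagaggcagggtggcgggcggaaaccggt
HSPA1A: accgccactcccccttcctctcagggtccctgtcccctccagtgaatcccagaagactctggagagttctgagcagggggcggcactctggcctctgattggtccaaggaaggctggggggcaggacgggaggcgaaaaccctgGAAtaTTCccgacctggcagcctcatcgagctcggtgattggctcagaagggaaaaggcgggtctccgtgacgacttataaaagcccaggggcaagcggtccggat

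Windows were in the table for 9 of the 10 members, and the search ran over 250 bases before to 50 bases after the start on both strands. A heat shock element of 3 alternating units, GAANNTTCNNGAA or TTCNNGAANNTTC, was present in the windows of 2 members, HSPA6 and HSPA8, and in 0.49% of all 35116 windows. It began 74 bases before the start of HSPA6 and at 230 and 55 bases before that of HSPA8. The form of 2 units, GAANNTTC or TTCNNGAA, which lies within every 3-unit element, occurred in 6 members (HSPA6, HSPA1A, HSPA1B, HSPA4L, HSPA8 and HSPA9) and in 13.5% of all windows. HSPA1A and HSPA1B held it at 106 and 105 bases before the start and also held TATAAA, at 30 and 29 bases. TATAAA occurred in 11.5% of all windows, also in 1 window of HSPA4L, and was not in the windows of HSPA6 or HSPA8. CCAAT was in the windows of HSPA1A, HSPA1B, HSPA2 and HSPA8, in 1 of the 3 windows of HSPA4L, and in 34.6% of all windows. These letter matches are descriptions of the windows and not binding sites.

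The values name no unit and were read as FPKM, a level per length of gene scaled to the library total. They summed to between 467589 and 475385 FPKM in OGD-R and between 428984 and 475131 FPKM in Control. Depth is not stated. Between 13.4% and 29.1% of the lowest values of single-exon genes in a library lay on a regular spacing. The fitted spacing differed by at most 1.48 times, smallest in Control 1 and largest in Control 4. Only a limited range of spacings was searched, in which a larger difference could not show, so relative depth is not settled. The OGD-R libraries lay close together, with correlations across genes of 0.992 to 0.993. Controls 1 and 2 correlated at 0.992 and Controls 3 and 4 at 0.991, but the correlation across these Control pairs was 0.874 to 0.881. Each member's result is therefore also given with either Control pair alone, for which p-values rest on 2 Control libraries and leave out the spread between the pairs. Messenger RNAs encoded in mitochondria took between 26.6% and 29.1% of the summed FPKM in OGD-R and between 17.5% and 21.9% in Control. The remaining FPKM summed to between 336697 and 343011 in OGD-R and between 336711 and 375014 in Control. Control 4, at 336711, lay within the OGD-R range. The part of mitochondrially encoded genes in the results was tested only by rescaling without them.
All 14 keratinocyte markers looked at had a mean of at least 1 FPKM, among them KRT5, KRT14 and TP63. Of the markers of other cells, COL1A1 of 8 for fibroblasts and CD68 of 6 for leukocytes reached that mean, and none of 4 for endothelium or 5 for melanocytes did. COL1A2 and TYR were at 0 in all libraries. The summed leukocyte list was between 3.32 and 3.99 FPKM in OGD-R and between 12.4 and 16.8 FPKM in Control, most of it CD68, and its part in the results below was not tested. The summed lists overlapped between the groups for fibroblasts, at 3.85 to 5.08 FPKM in OGD-R and 0.916 to 8.72 FPKM in Control. Endothelial markers summed to 0.296 to 0.463 FPKM in OGD-R and 0.0474 to 0.199 FPKM in Control, and melanocyte markers to 0.543 to 0.699 FPKM in OGD-R and 0.157 to 0.451 FPKM in Control. In bulk RNA, fewer cells expressing a gene and less RNA per cell cannot be told apart.

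The members did not share 1 pattern. HSPA6 was close to absent in OGD-R and present in every Control. HSPA9, of mitochondria, and HSPA13, a microsomal member, were lower in OGD-R than in every Control, and HSPA4L was higher. The abundant cytosolic genes HSPA8, HSPA1A and HSPA1B, with HSPA14, lay in OGD-R below Controls 1 and 2 and above Controls 3 and 4. Of all 11740 genes tested, 14.8% had every OGD-R library below every Control, and 15.2% had every one above. A further 13.6% had the order between the Control pairs, so none of these orders is particular to the family.

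**Figure D1:**
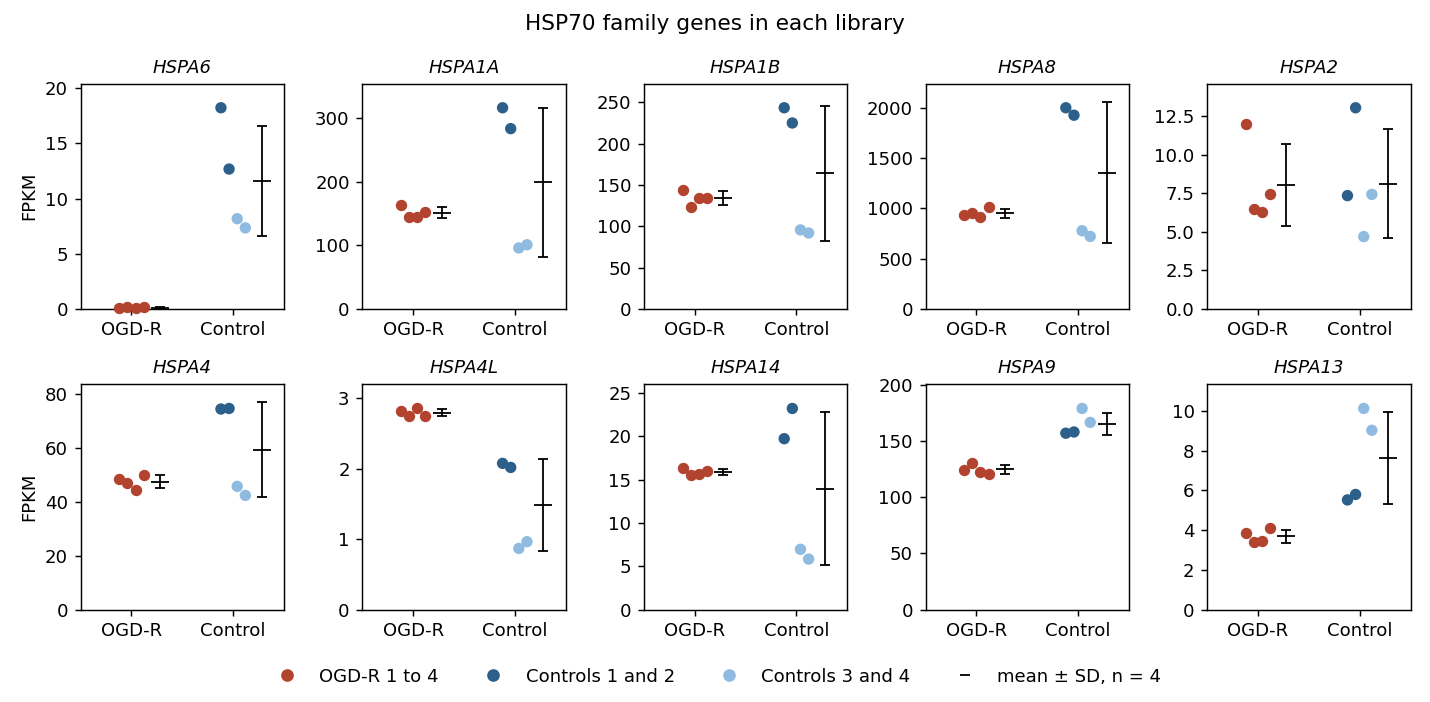
FPKM of the 10 genes in each library, with a linear axis from 0 for each gene; points are libraries and the bars beside them the mean ± SD of 4 libraries. HSPA6 is near 0 in all OGD-R libraries, and HSPA8 lies between 909 and 1012 FPKM in OGD-R, within the gap between Controls 1 and 2 and Controls 3 and 4.

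HSPA6 (ENSG00000173110, chromosome 1, 161524540 to 161526910, plus strand, 1 exon) had 0.0975, 0.198, 0.0438 and 0.125 FPKM in OGD-R 1 to 4. Controls 1 to 4 held 18.2, 12.7, 8.18 and 7.35 FPKM. The groups lay far apart, and Controls 1 and 2 were above Controls 3 and 4. The mean was 0.116 ± 0.0643 FPKM in OGD-R and 11.6 ± 5.002 FPKM in Control (SD, n = 4 each), so OGD-R held 1.0006% of the Control mean. On the log2(FPKM + 1) scale the change was -3.42 (SE 0.25), and it was -3.86 against Controls 1 and 2 and -2.97 against Controls 3 and 4. A pseudocount of 0.1 in place of 1 made it -5.71, since the OGD-R values lie well below 1. In units of the smallest spacing of low values, set to this 2371-base transcript, OGD-R 1 to 4 stood at about 8.998, 20.9, 4.44 and 11.98 steps and the Controls at between 587 and 2154. What 1 step is in fragments is not known, and the ratio rests on OGD-R values few steps above 0.
Of the 100-base windows in the HSPA6 transcript, 27.6% were also in HSPA7, a pseudogene not analysed here, so some fragments could belong to either.

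Among the genes whose log2 values were most like those of HSPA6 over the 8 libraries were SRP72, UBASH3B, CDH4 and DAP. Their Pearson correlations with HSPA6 were between 0.993 and 0.995, given as a measure of likeness over libraries that form 3 clusters. SRP72, a protein of the signal recognition particle, was at 27.3 ± 0.553 FPKM in OGD-R and 37.4 ± 1.56 FPKM in Control (SD, n = 4 each). The correlation does not reflect the size of the difference. OGD-R held 73.0% of the Control mean for SRP72, 42.7% for UBASH3B, 16.9% for CDH4, a cadherin, and 53.4% for DAP.

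**Figure D2:**
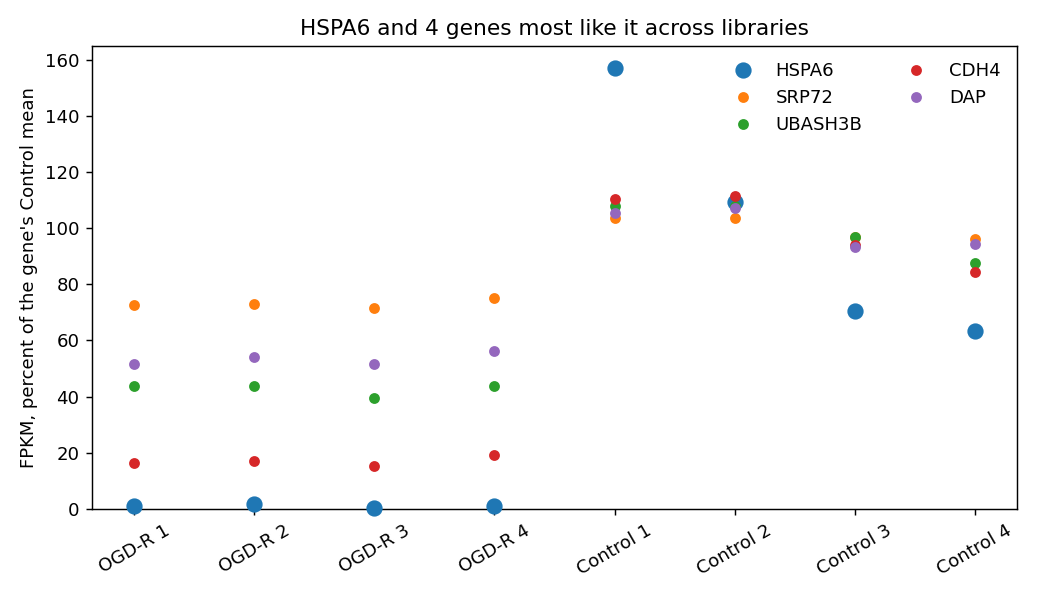
FPKM as a percent of each gene's Control mean in every library, on a linear axis from 0, for HSPA6 and 4 of the genes most correlated with it. HSPA6 lies between 0.378% and 1.71% in OGD-R, while the other genes keep between 15.3% and 75.0%.

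HSPA8 (ENSG00000109971, chromosome 11, 123057489 to 123063230, minus strand) was the most abundant member in every library. It had 930.1, 955, 909 and 1012 FPKM in OGD-R 1 to 4, against 1998, 1924, 776 and 719 FPKM in Controls 1 to 4. OGD-R lay wholly between the Control pairs. With all libraries the log2 fold change was -0.35 ± 0.35 (SE; limma adjusted p = 0.523), so no difference from Control was detectable against this spread. Against Controls 1 and 2 it was -1.04 ± 0.06 (SE; limma adjusted p = 2.48e-06) and against Controls 3 and 4 it was 0.35 ± 0.08 (SE; limma adjusted p = 0.0026). Among the genes most like HSPA8 were GTF2A2, a general transcription factor subunit, GMPS, the GMP synthase gene, and RARS, the arginyl-tRNA synthetase gene, with Pearson correlations between 0.996 and 0.998 over 8 libraries.

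HSPA1A (ENSG00000204389, chromosome 6, 31815464 to 31817946, plus strand) had 163, 145, 145 and 152 FPKM in OGD-R 1 to 4, against 317, 284, 95.9 and 101 FPKM in Controls 1 to 4. HSPA1B (ENSG00000204388, chromosome 6, 31827735 to 31830255, plus strand) had 144, 124, 134 and 134 FPKM in OGD-R 1 to 4, against 243, 225, 95.5 and 91.8 FPKM in Controls 1 to 4. In both, OGD-R lay between the Control pairs, as in HSPA8. Every OGD-R library lay in that order for 13.6% of all 11740 genes tested, and in the reverse order, which no member had, for 6.79%. The log2 fold change of HSPA1A was -0.19 ± 0.40 with all Controls (SE; limma adjusted p = 0.78), -0.98 against Controls 1 and 2 (SE 0.07; limma adjusted p = 6.63e-06) and 0.61 against Controls 3 and 4 (SE 0.07; limma adjusted p = 4.81e-05). For HSPA1B these values were -0.15 ± 0.33 (SE; limma adjusted p = 0.792), -0.80 (limma adjusted p = 2.09e-05) and 0.51 (limma adjusted p = 0.000198).

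The longest coding transcripts of HSPA1A and HSPA1B were 97.7% identical over 2333 aligned bases, and 69.9% of the 100-base windows of HSPA1A were also in HSPA1B. How fragments were divided between the copies is not given, so their separate values are uncertain, and HSPA1B also shares 920 exon bases with AL671762.1 on the same strand. Added up, they came to 307, 269, 279 and 286 FPKM in OGD-R 1 to 4 and to 560.02, 509, 191 and 193 FPKM in Controls 1 to 4. The sum kept the same order, and its log2 fold change was -0.17 ± 0.37 (SE; limma adjusted p = 0.783). The ratio of HSPA1A to HSPA1B ran from 1.08 to 1.17 in OGD-R and from 1.004 to 1.30 in Control, with Controls 1 and 2 above and Control 3 below the OGD-R range. Among the genes most like HSPA1A were HSPA1B, POLE3, a DNA polymerase epsilon subunit, and DAD1, a subunit of the oligosaccharyltransferase, with Pearson correlations between 0.996 and 0.997 over 8 libraries.

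HSPA2, a member best known from the testis, where mice need it for meiosis of male germ cells, did not separate the groups. It had 11.96, 6.45, 6.28 and 7.42 FPKM in OGD-R 1 to 4, against 7.35, 13.0, 4.69 and 7.42 FPKM in Controls 1 to 4. OGD-R 1 and Control 2 were the high libraries, and the log2 fold change was 0.02 ± 0.29 (SE; limma adjusted p = 0.971). A difference was not detectable against this spread, which does not show equal levels. It was -0.30 against Controls 1 and 2 (limma adjusted p = 0.339) and 0.34 against Controls 3 and 4 (limma adjusted p = 0.22), overlapping both pairs.

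HSPA4 and HSPA4L encode HSP110 proteins, relatives of HSP70 that act as its nucleotide exchange factors. HSPA4 (ENSG00000170606, chromosome 5) had 48.5, 47.0, 44.3 and 49.8 FPKM in OGD-R 1 to 4, against 74.3, 74.5, 45.6 and 42.3 FPKM in Controls 1 to 4. OGD-R overlapped Controls 3 and 4 and lay below Controls 1 and 2, and the log2 fold change was -0.27 ± 0.20 with all Controls (SE; limma adjusted p = 0.383). It was -0.64 against Controls 1 and 2 (limma adjusted p = 4.12e-05) and 0.11 against Controls 3 and 4 (limma adjusted p = 0.21).
HSPA4L (ENSG00000164070, chromosome 4, 127781821 to 127840733, plus strand) had 2.82, 2.75, 2.85 and 2.75 FPKM in OGD-R 1 to 4, against 2.07, 2.02, 0.867 and 0.963 FPKM in Controls 1 to 4. All OGD-R libraries exceeded all Controls, an order that 15.2% of all genes tested had, and the log2 fold change was 0.65 ± 0.18 (SE; limma adjusted p = 0.0397). The call was lost without Control 3, without Control 4 and without any OGD-R library, with limma adjusted p between 0.0772 and 0.103 in those fits, and with a pseudocount of 0.1 (limma adjusted p = 0.0506) or no filter on low genes (limma adjusted p = 0.0622). HSPA4L was also called against either Control pair alone, at 0.32 against Controls 1 and 2 (limma adjusted p = 0.00902) and at 0.99 against Controls 3 and 4 (limma adjusted p = 7.05e-06). Those fits leave out the spread between the pairs and called 55.2% and 67.6% of all genes, so they do not show that the call is stable.

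HSPA14 works at the ribosome with the J-domain protein DNAJC2, where the pair assists newly made proteins. The kept ID (ENSG00000187522, chromosome 10, 14838164 to 14871741, plus strand) had 16.3, 15.5, 15.6 and 15.96 FPKM in OGD-R 1 to 4, against 19.7, 23.2, 6.95 and 5.82 FPKM in Controls 1 to 4. OGD-R lay between the Control pairs, with a log2 change of 0.39 ± 0.41 (SE; limma adjusted p = 0.535), of -0.41 against Controls 1 and 2 (limma adjusted p = 0.00161) and of 1.19 against Controls 3 and 4 (limma adjusted p = 1.17e-06). Another ID with this symbol (ENSG00000284024, 14838160 to 14847018 on the same strand) did not share this split. It had 4.67, 4.21, 4.14 and 4.61 FPKM in OGD-R 1 to 4, against 6.37, 5.82, 5.27 and 5.57 FPKM in Controls 1 to 4, with every OGD-R library below every Control and a log2 change of -0.32 ± 0.09 (SE; limma adjusted p = 0.0336). The exons of these IDs share 460 bases, so the division of fragments between them is uncertain. With both IDs added up the log2 fold change was 0.15 ± 0.30 (SE; limma adjusted p = 0.75).

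HSPA9, mortalin, pulls precursor proteins into the mitochondrial matrix and folds them there. It (ENSG00000113013, chromosome 5, 138553756 to 138575724, minus strand) had 125, 131, 123 and 121 FPKM in OGD-R 1 to 4, against 157, 158, 179 and 167 FPKM in Controls 1 to 4. The groups did not overlap, with OGD-R lower, as was the case for 14.8% of all genes tested, and Controls 3 and 4 lay slightly above Controls 1 and 2. The log2 fold change was -0.40 ± 0.08 (SE; limma adjusted p = 0.0104), with -0.34 against Controls 1 and 2 (limma adjusted p = 0.000843) and -0.47 against Controls 3 and 4 (limma adjusted p = 0.000166). Rescaled without mitochondrially encoded genes, it was -0.33 (limma adjusted p = 0.0321).

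HSPA13, a microsomal member that lacks the substrate-binding domain, had the largest called decrease among the tested members. It (ENSG00000155304, chromosome 21, 14371115 to 14383484, minus strand) had 3.83, 3.41, 3.45 and 4.09 FPKM in OGD-R 1 to 4, against 5.52, 5.79, 10.1 and 9.02 FPKM in Controls 1 to 4. The groups did not overlap either, and here Controls 3 and 4 were the high ones. The log2 fold change was -0.84 ± 0.19 (SE; limma adjusted p = 0.0166), with -0.51 against Controls 1 and 2 (limma adjusted p = 0.00127) and -1.17 against Controls 3 and 4 (limma adjusted p = 3.62e-06). Without OGD-R 2 or without OGD-R 3 the call was lost (limma adjusted p = 0.0552 and 0.0561).

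All 10 members passed the filter of a mean of at least 1 FPKM, HSPA6 only through its Control values. Of the 9 that were tested, 1 rose, namely HSPA4L, and 2 fell, namely HSPA9 and HSPA13, beside 10.2% of all 11740 genes called higher and 9.69% called lower (19.9% in either direction). Of all calls 51.4% were higher. Rescaling each library to the same sum without mitochondrially encoded genes gave 66.8%, with a median of 0.11 over all genes, but it also raised all values and so took 13624 genes past the filter. With the mean level and the 11727 other genes of the reported fit kept, an alternative chosen after seeing the data, 64.6% of calls were higher and the median was 0.08. HSPA4L, HSPA9 and HSPA13 were the members called in both. The median log2 fold change of the 9 was -0.19, against 0.02 for all genes tested. Against Controls 1 and 2 alone, 1 of the 9 rose and 7 fell, where 22.8% of all genes were called higher and 32.4% lower (55.2% in either direction). Against Controls 3 and 4 alone, 5 rose and 2 fell, where 39.2% of all genes were called higher and 28.4% lower (67.6% in either direction). The median of the 9 was -0.51 against Controls 1 and 2 and 0.35 against Controls 3 and 4, where that of all genes was -0.05 and 0.09. HSPA9 and HSPA13 fell against both Control pairs, as did 11.9% of all genes. HSPA4L rose against both, as did 12.1%. HSPA1A, HSPA1B, HSPA8 and HSPA14 were called in opposite directions, lower against Controls 1 and 2 and higher against Controls 3 and 4, as were 10.5% of all genes.

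**Figure D3:**
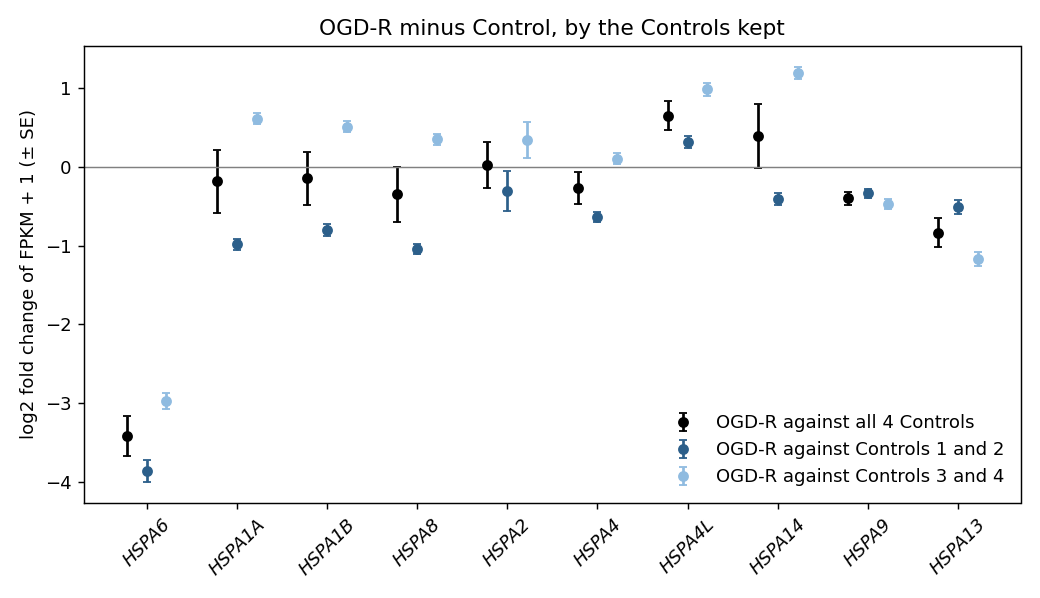
Log2 fold change of FPKM + 1, OGD-R minus Control, with its SE from limma, for all 4 Controls, for Controls 1 and 2 and for Controls 3 and 4. HSPA6, HSPA9 and HSPA13 lie below 0 and HSPA4L above 0 in all 3 fits, while HSPA1A, HSPA1B, HSPA8 and HSPA14 change sign between the Control pairs.

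Summed over the 10 genes, the level was 1445, 1429.9, 1384 and 1499.8 FPKM in OGD-R 1 to 4 and 2843, 2722, 1223 and 1152 FPKM in Controls 1 to 4. These sums were between 0.295% and 0.315% of all FPKM in OGD-R and between 0.267% and 0.598% in Control. HSPA8 made up between 64.4% and 67.5% of the sum in OGD-R and between 62.5% and 70.7% in Control. HSPA9 was at between 11.97% and 13.7% of the HSPA8 level in OGD-R, above 7.87% and 8.23% in Controls 1 and 2 and below 23.1% and 23.2% in Controls 3 and 4. HSPA6 was at most 0.137% of the HSPA1A level in OGD-R and between 4.47% and 8.52% of it in Control.
By mean FPKM the order in OGD-R was HSPA8, HSPA1A, HSPA1B, HSPA9, HSPA4, HSPA14, HSPA2, HSPA13, HSPA4L and HSPA6. Only the ranges of the neighbours HSPA1B and HSPA9 overlapped there. In Control, HSPA6 stood between HSPA14 and HSPA2, and HSPA4L was lowest. The Control ranges of HSPA1A, HSPA9 and HSPA1B ran into each other, and so did those of HSPA14, HSPA6, HSPA2 and HSPA13. The order of their Control means is therefore not set beyond the spread. Within single libraries, HSPA1A was above HSPA1B in every Control. HSPA9 was below both in Controls 1 and 2 and above both in Controls 3 and 4.

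**Figure D4:**
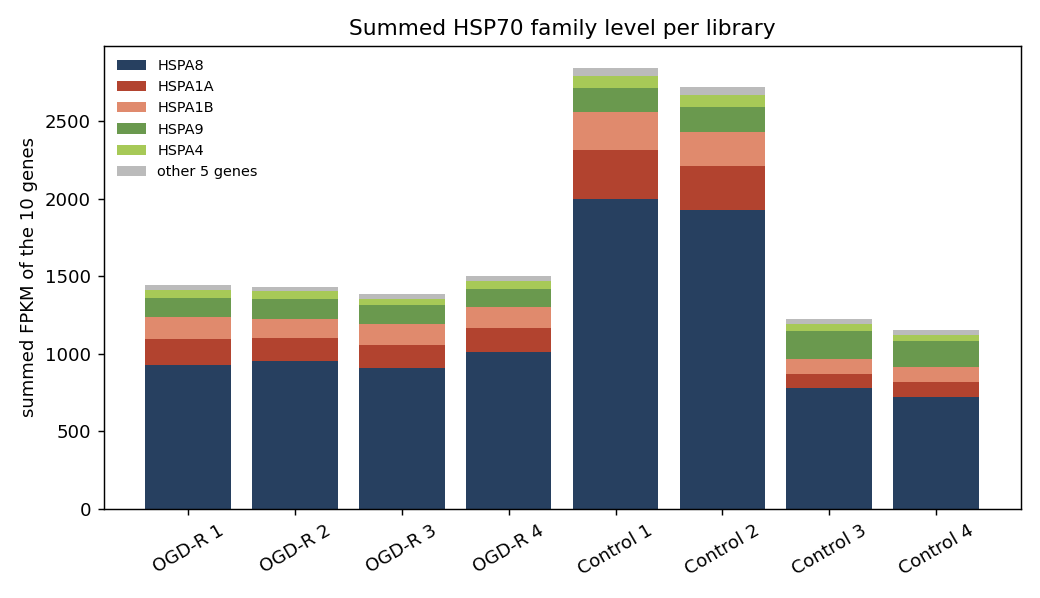
Stacked FPKM of the family in each library, from 0. The sum is between 1384 and 1499.8 FPKM in OGD-R, against 2843 and 2722 FPKM in Controls 1 and 2 and 1223 and 1152 FPKM in Controls 3 and 4, with HSPA8 the largest part throughout.

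Of the heat shock factors, the transcription factors behind the response, HSF1 fell and HSF2 and HSF4 rose. HSF1 was at 22.6 ± 0.42 FPKM in OGD-R and 39.2 ± 7.96 FPKM in Control (SD, n = 4 each), with a log2 change of -0.75 ± 0.14 (SE; limma adjusted p = 0.00881). Controls 1 to 4 were at 31.9, 32.9, 47.6 and 44.3 FPKM, all above OGD-R. HSF2 was at 5.47 ± 0.327 FPKM in OGD-R and 3.62 ± 0.633 FPKM in Control, and HSF4, a factor known from the lens, at 5.30 ± 0.923 FPKM in OGD-R and 2.54 ± 0.49 FPKM in Control (log2 fold changes 0.49 and 0.83; limma adjusted p = 0.0184 and 0.00578). HSBP1L1, named for its likeness to the heat shock factor binding protein, had a log2 fold change of 0.83 (limma adjusted p = 0.00269). These made up 3 higher and 1 lower of 8 genes tested in the list drawn up as factors and regulators. That list also held HSBP1, SIRT1, EP300 and the chaperone TRAP1. Its median log2 fold change was 0.15, where all genes tested had 10.2% higher, 9.69% lower and a median of 0.02. Each of the 4 kept its direction against either Control pair.

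Of 22 other targets of heat shock factors tested, 0 rose and 3 fell with all Controls (limma; 0 and 5 at an unadjusted p under 0.05). The 13.6% lower lay near the 9.69% of all genes tested. The called genes were BAG3, CRYAB, a small heat shock protein, and ZFAND2A, a zinc finger protein induced by arsenite, with log2 fold changes of -0.39, -0.74 and -0.45 (limma adjusted p = 0.0102, 0.031 and 0.0483). Against Controls 1 and 2, 2 rose and 17 fell, or 9.09% and 77.3%, beside 22.8% and 32.4% of all genes. Of the other lists, 66.7% of nucleotide exchange factors and 70.0% of other HSP70 partners also fell against Controls 1 and 2. So did 39.4% of J-domain co-chaperones, 37.5% of factors and regulators and 25.0% of tested HSP70 superfamily genes outside the members. Some genes stand on several lists. Against Controls 3 and 4, 8 rose and 8 fell, 36.4% each, near the 39.2% and 28.4% of all genes. The median log2 fold change was -0.23 with all Controls, -0.57 against Controls 1 and 2 and 0.06 against Controls 3 and 4. HSP90AA1, the inducible cytosolic HSP90 gene, chosen after its values were seen, had 510.4, 530.5, 494 and 562 FPKM in OGD-R 1 to 4, against 1071, 1142, 380 and 381 FPKM in Controls 1 to 4. OGD-R lay between the Control pairs, as for HSPA8. HSPB1 and HSPB8, of the same list, had the reverse order, above Controls 1 and 2 and below Controls 3 and 4. HSPB1 had 681, 736, 806 and 719 FPKM in OGD-R 1 to 4, against 381, 326, 981 and 1067 FPKM in Controls 1 to 4. DNAJB1, also chosen after its values were seen, is a J-domain partner of HSPA1A that is itself heat-induced. It had 87.3, 84.2, 83.0 and 85.8 FPKM in OGD-R 1 to 4, against 80.8, 76.2, 103 and 94.5 FPKM in Controls 1 to 4. DNAJB1 thus had the same reverse order as HSPB1, with Controls 3 and 4 the high ones.

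Among 33 J-domain co-chaperones tested of 36 listed, 1 rose and 2 fell (limma; 1 and 5 at an unadjusted p under 0.05), with a median log2 fold change of -0.07. These were 3.03% and 6.06% of the list, under the 10.2% and 9.69% of all genes. DNAJC15, a protein of the inner mitochondrial membrane, rose by 0.60 (limma adjusted p = 0.00508). DNAJC25 and DNAJC10, a disulfide reductase of the endoplasmic reticulum, had log2 fold changes of -0.58 and -0.84 (limma adjusted p = 0.00371 and 0.0289). Of 12 nucleotide exchange factors, 1 rose and 3 fell (limma; 1 and 5 at an unadjusted p under 0.05), or 8.33% and 25.0% beside 10.2% and 9.69% of all genes, with a median of -0.36. BAG1 was at 35.7 ± 2.53 FPKM in OGD-R and 23.1 ± 1.78 FPKM in Control (SD, n = 4 each; log2 fold change 0.61, limma adjusted p = 0.00364). BAG3, which couples HSP70 to autophagy, was at 51.5 ± 2.3 FPKM in OGD-R and 67.8 ± 2.6 FPKM in Control. GRPEL1 and GRPEL2, the exchange factors of mitochondrial HSPA9, had log2 fold changes of -0.42 and -0.55 (limma adjusted p = 0.0358 and 0.034). HSPA9 and both of these were lower in OGD-R, and each kept that direction against either Control pair. Mitochondrial genes of these lists did not all fall, as DNAJC15 rose, by 0.48 against Controls 1 and 2 and 0.72 against Controls 3 and 4. Others on the lists, HSPE1, HSPD1, TRAP1, TOMM70, MRPL18, HSCB, DNAJC19 and DNAJC30, were not called with all Controls. Their estimates were below 0 against Controls 1 and 2 and above 0 against Controls 3 and 4, as for HSPE1 (-0.80 and 1.01). DNAJA3, also not called, was below 0 against both (-0.35 and -0.004). Mitochondrial genes were not tested as a set.
Of 10 other partners, 0 rose and 2 fell (limma; 0 and 3 at an unadjusted p under 0.05), those that fell being 20.0% beside 9.69% of all genes, with a median of -0.07. STUB1, the ubiquitin ligase CHIP, which marks HSP70 clients for degradation, had a log2 fold change of -0.40 (limma adjusted p = 0.0115). TOMM34, a cytosolic co-chaperone of mitochondrial precursor proteins, had one of -0.70 (limma adjusted p = 0.0228).

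**Figure D5:**
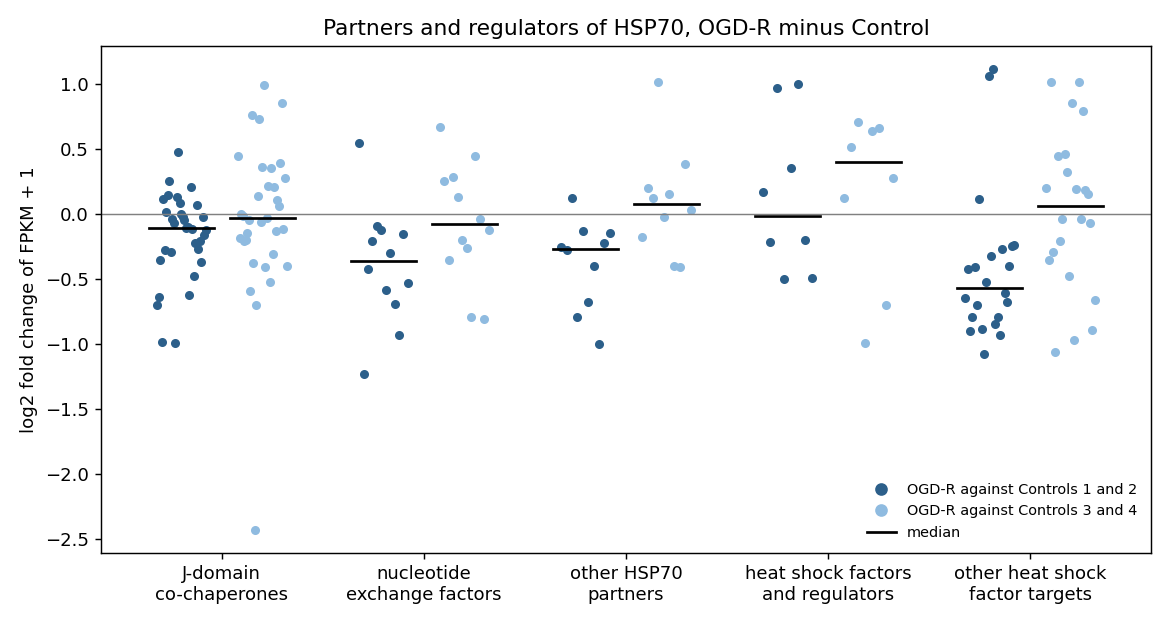
Log2 fold change of FPKM + 1 for each tested gene of 5 lists, OGD-R minus Controls 1 and 2 on the left and minus Controls 3 and 4 on the right of each list, with the median as a bar. The median of the other heat shock factor targets is -0.57 against Controls 1 and 2 and 0.06 against Controls 3 and 4.

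Of 7 HSP70 superfamily genes outside the members, 4 were tested, and 0 were called with all Controls (limma; 0 higher and 1 lower at an unadjusted p under 0.05; median log2 fold change -0.48). HSPA5, the HSP70 of the endoplasmic reticulum, had 176, 178, 165 and 183 FPKM in OGD-R 1 to 4, against 182, 185, 353 and 324 FPKM in Controls 1 to 4. OGD-R overlapped Controls 1 and 2 and lay below Controls 3 and 4, with a log2 change of -0.51 ± 0.23 (SE; limma adjusted p = 0.161). It was -0.07 against Controls 1 and 2 (limma adjusted p = 0.372) and -0.94 against Controls 3 and 4 (limma adjusted p = 2.66e-06). HSPA1L, whose gene lies beside HSPA1A, was under the filter, between 0.65 and 0.856 FPKM in OGD-R and between 0.363 and 0.950 FPKM in Control.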

How the data were processed

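The 8 HaCaT libraries were assigned to OGD-R or Control by title. Per the labels' protocols, total RNA went into libraries, with NEBNext and SMARTer kits both mentioned. Which aligner, counter, build or annotation made the values is not given. The deposited tables, 1 for each library, were read as FPKM from the spacing of low values in 940 single-exon genes, where 20 to 43 of 123 to 162 low values a library lay on it, so the unit rests on a minority of them, since the header names no unit. Of 24252 rows, 19974 had Ensembl IDs, all found in GENCODE 29 on GRCh38, whose coordinates are given.

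The test was limma 3.58.1 in R 4.3.3, with an intensity trend, on log2(FPKM + 1) of the 11740 genes averaging 1 FPKM or more, with Benjamini-Hochberg adjustment over all of them and a threshold of 0.05. Fold changes on this scale understate those of low genes. It was tried on simulated data that gave both groups the spread of the OGD-R libraries. That trial left out the split between the Control pairs, so it does not show how the test behaves on these Controls. Shared windows of 100 bases were counted in GENCODE 29 transcripts. Alternatives covered pseudocounts, filters, scalings, left-out libraries, Control pairs, a replicate block, added-up IDs and no trend; count-based tests were foreseen but not used, because the values are not counts.

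Members, lists and Control pairs were chosen with earlier results of these data known. Named were all members, up to 4 called genes of smallest p per list with HSF1, HSPA5, HSPA1L and HSPA7, and the genes most correlated with HSPA6 (5), HSPA1A (3) and HSPA8 (3). Some genes that these rules and lists take are not reported here. Analyses used Python 3.11.15 and Biopython 1.88, and figures matplotlib 3.10.9.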

Additional observations from a re-analysis of the deposited data

Results flagged for a closer look

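Of 74 groups of 4 libraries looked at, 3 held a library whose gap to its nearest neighbour relative to the group's range was over the 95% critical value of Dixon's test, which chance exceeds in about 1 in 20 groups. In Control, BAG1 had a gap of 0.919 of the range, with Control 4 at 20.4 FPKM below the others at 23.8 to 24.1 FPKM. In OGD-R, UBASH3B had a gap of 0.935, with OGD-R 3 at 2.13 FPKM below the others at 2.34 to 2.36 FPKM. GTF2A2 had a gap of 0.885 in OGD-R, with OGD-R 4 at 27.8 FPKM above the others at 25.6 to 25.8 FPKM. No family member was among them.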

How the results depend on the processing

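Of 9 tested members, 1 was called higher and 2 lower. The higher count was 0 with a pseudocount of 0.1, with no filter, with a mean of at least 5 FPKM (which drops HSPA4L), and with the replicate block, and 5 with Controls 3 and 4 only. At an unadjusted p under 0.05, limma gave 1 higher in the 3 fits with a count of 0 that kept HSPA4L. The lower count was 7 with Controls 1 and 2 only and 1 with the replicate block. Leaving out each library in turn gave 0 to 1 higher and 1 to 2 lower. Over all genes, 1202 were higher and 1138 lower. The counts were 2673 and 3807 with Controls 1 and 2 only, 4603 and 3337 with Controls 3 and 4 only, and 625 and 507 with the replicate block. A mean of at least 5 FPKM gave 689 higher. Rescaling to a fixed sum without mitochondrial genes gave 1962 higher and 976 lower of 13624 genes that then passed the filter. With level and gene set kept, chosen after seeing the data, it gave 1589 and 870, so 64.6% of calls were higher against 51.4% as deposited. Leaving out each library gave 711 to 1426 higher and 561 to 1312 lower.

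Directions turned for members that were not called. With Controls 3 and 4 only, the log2 fold change was 0.61 for HSPA1A, 0.51 for HSPA1B, 0.11 for HSPA4 and 0.35 for HSPA8. With Controls 1 and 2 only, it was -0.41 for HSPA14 and -0.30 for HSPA2. HSPA2 was at -0.026 under median ratio scaling. With each library left out it ran from -0.46 to 0.11 for HSPA1A, from -0.37 to 0.091 for HSPA1B and from -0.18 to 0.25 for HSPA2. HSPA6 was between -3.59 and -3.19 when each library was left out. It was -4.56 rescaled to that fixed sum, where the pseudocount weighs less, and -3.38 with the level kept. Because HSPA6 was chosen by these same values, these figures are a description and no support for its fall.

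Replicate numbers did not pair the libraries: deviations from the group means of libraries with the same number correlated at 0.045 to 0.0646. The replicate block left HSPA13 called (limma adjusted p = 0.0441) and not HSPA9 (limma adjusted p = 0.0729) or HSPA4L (limma adjusted p = 0.08). FPKM holds no counts, so no counting intervals are given.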
